A study of Mus musculus with 6 samples.

Results

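Pdcd4 and Mknk1, a brake on the helicase of translation initiation and a kinase of the cap-binding protein, were lower in mast cells 4 h after ionomycin by limma across the arrays (adjusted p = 0.0302 and 0.0485), and neither passed with the replicate number as a block (0.0540 and 0.0702). They belong to 10 named genes that set how ribosomes are loaded onto mRNA: Pdcd4, the MAP kinase-interacting kinase genes Mknk1 and Mknk2, the helicase genes Eif4a1 and Eif4a2, the cap-binding gene Eif4e, its repressors Eif4ebp1 and Eif4ebp2, and the scaffold genes Eif4g1 and Eif4g2. A gene counted as measured where the platform annotation gave a row that symbol and no other, and the row with the highest mean level over the 6 arrays stood for the gene. That held for 8 of the 10 genes, out of 30102 genes in all. Eif4g1 was named by no row used here. Eif4a2 shared its row with the small nucleolar RNA genes Snord2 and Snora81, and no value is given for it. The genes were listed by name and function; only the choice of row was selected on measured values, the 6-array mean level, and since each measured gene had 1 row it decided none of them. The genes were grouped with the falls of Pdcd4 and Mknk1 already known, and the count of genes that changed is therefore no independent evidence.

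In textbook outline, eIF4E binds the 5′ cap of an mRNA, eIF4G is the scaffold that joins it to the ribosome, and the helicase eIF4A unwinds the leader so that the small ribosomal subunit can scan. The step is held back from both sides. The 4E-BP proteins compete with eIF4G for eIF4E until mTOR phosphorylates them, and PDCD4 binds eIF4A until S6 kinase marks it for destruction. The MNK kinases, which sit on eIF4G and are switched on by ERK and p38, phosphorylate eIF4E.

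The cells were mast cells grown from bone marrow (BMMCs), taken from C57BL/6J femurs, kept 6 weeks with interleukin 3 at 5 ng/mL and supernatant that contains stem cell factor. Activated cells had 1 µg/mL ionomycin, a calcium ionophore that makes mast cells degranulate, for 1 h in Tyrode's buffer, and naive cells had the same buffer without it; after washing, both spent 3 h in medium. Each group had 3 arrays, numbered 1 to 3 in the labels, of total RNA on a whole-transcript Affymetrix platform. The labels give no age or sex of the mice and do not say whether replicates were separate cultures or animals, so p-values measure only how far these samples scatter, and that scatter may be technical. The comparison asks which transcripts differ hours after degranulation.

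All values are log2 signals, on which a step of 1 is a doubling. The number of arrays limits their precision, and array medians lay between 5.88 and 6.03. All 10 mast cell markers checked were above the background level of 6.05, the 95th percentile of chemosensory receptor genes; Kit, the stem cell factor receptor, averaged 12.97 and Cpa3, a mast cell protease, 14.24. By limma 0 of these 10 markers passed between the groups, with or without the replicate block, while 4 were lower and 1 higher without overlap. Over all genes, 7.31% were lower and 18.9% higher without overlap. Limma called 0.0598% of all genes lower and 0.289% higher (0.110% and 0.395% with the block). Kit was at -0.39 and Ms4a2, a chain of the IgE receptor, at -0.62 (limma adjusted p = 0.222 and 0.163), and Hdc, the histamine-forming enzyme, at 1.04 (0.180). With a block of 2 levels, replicate 1 against the others, Ms4a2 alone of the 10 markers passed (limma adjusted p = 0.0102). That fit called 2.47% of all genes lower and 2.25% higher. The part of these marker differences in the values of the members was not tested. In both groups the replicate 1 array differed from the rest. These arrays were higher in the basophil proteases Mcpt8 (10.36 and 10.60 against 9.03 to 9.20 on the other arrays) and Prss34 (10.35 and 10.70 against 8.60 to 8.94), and lower in Cd68, a macrophage marker (10.49 and 10.67 against 11.37 to 11.99). The other macrophage markers, Adgre1, Csf1r and Mrc1, went the other way. Replicate 1 exceeded the mean of replicates 2 and 3 by 0.32, 0.30 and 0.79 in naive cells. In activated cells it did so by 0.53, 0.15 and 0.18. No marker of another cell type passed the test between the groups by limma (0 of 17 measured in 6 lists, 1, the B cell gene Cd79a, at an unadjusted p under 0.05). At that unadjusted p, 10.2% of all genes were higher and 5.44% lower.

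The promoters of Pdcd4 and Mknk1 are shown because these were the members that passed the test. Both are from RefSeq on GRCm38.p6, plus strand, 250 bases before to 50 after a start site. Capitals mark matches on either strand to the letters searched. These were GGGCGG for the GC box and CCAAT for the CCAAT box. The E-box was searched as CACGTG and the cyclic AMP response element (CRE) as TGACGTCA. The AP-1 site was searched as TGAGTCA and the NFAT core as GGAAAA. No matches overlapped.
Pdcd4, chr19:53903101-53903400: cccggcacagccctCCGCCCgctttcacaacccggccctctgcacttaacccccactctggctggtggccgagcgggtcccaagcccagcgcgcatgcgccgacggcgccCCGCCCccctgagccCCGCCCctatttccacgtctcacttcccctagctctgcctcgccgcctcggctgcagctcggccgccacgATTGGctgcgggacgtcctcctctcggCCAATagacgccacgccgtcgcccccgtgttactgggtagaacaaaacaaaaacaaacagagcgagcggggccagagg
Mknk1, chr4:115838948-115839247: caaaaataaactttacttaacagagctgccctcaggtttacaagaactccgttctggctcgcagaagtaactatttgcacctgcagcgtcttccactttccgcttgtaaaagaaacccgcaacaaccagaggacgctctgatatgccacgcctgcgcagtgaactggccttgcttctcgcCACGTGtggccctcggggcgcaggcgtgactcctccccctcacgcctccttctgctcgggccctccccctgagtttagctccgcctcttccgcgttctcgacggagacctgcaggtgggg
The Pdcd4 window held 31 CpG, 3 GC boxes and 2 CCAAT boxes, and the Mknk1 window 20 CpG and 1 E-box. RefSeq lists a second start for each gene: that of Pdcd4 lies upstream with 2 CpG and 2 NFAT cores, and that of Mknk1 overlaps the printed window. Of 32851 promoter windows of this length, 35.7% held a GC box, 37.4% a CCAAT box, 7.15% an E-box, 1.79% a CRE, 5.2% an AP-1 site and 23.4% an NFAT core. Promoters were given for 6 of the 8 measured genes. The GC box was present in 4 of them (Pdcd4, Mknk2, Eif4a1, Eif4ebp2), the CCAAT box in 3 (Pdcd4, Eif4a1, Eif4e), the E-box in 3 (Mknk1, Eif4a1, Eif4e) and the NFAT core in 2 (Pdcd4, Eif4e). The CRE and AP-1 letters were in none of the 6. A gene was counted if any of its windows matched, while the percentages are per window. Pdcd4, Mknk1 and Eif4e had a second window, so the gene counts and the percentages are not alike. For Pdcd4 and Eif4e the NFAT core was in a single window. A match is a description of letters and not a binding site.

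Pdcd4 was at 12.13, 12.25 and 12.36 on the naive arrays 1, 2 and 3, and at 11.54, 11.36 and 11.46 on the ionomycin arrays. The groups did not overlap: the lowest naive array lay above the highest ionomycin array. The level fell from 12.25 ± 0.11 to 11.45 ± 0.09 (SD, n = 3 per group), to 57.7% of naive on the linear scale, a 1.73-fold fall with a 95% interval from 1.51 to 1.99. The log2 difference was -0.79 ± 0.08 (SE; limma adjusted p = 0.0302, two-sided, adjusted over all genes by Benjamini-Hochberg with a threshold of 0.05). In bulk RNA, fewer cells that carry a transcript and less of it per cell cannot be told apart. By replicate number the differences were -0.59, -0.89 and -0.90, the smallest of them in replicate 1. The fall did not pass once the replicate number entered limma as a block (adjusted p = 0.0540).

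Mknk1, which encodes MNK1, was at 9.55, 9.53 and 9.43 on the naive arrays and at 8.90, 9.0 and 9.03 on the ionomycin arrays. Again no naive array reached down to an ionomycin array. The mean fell from 9.50 ± 0.07 to 8.98 ± 0.07 (SD, n = 3 per group), 1.44-fold with an interval from 1.29 to 1.61, and the log2 difference was -0.53 ± 0.07 (SE; limma adjusted p = 0.0485). By replicate number the differences were -0.66, -0.53 and -0.40, the largest of them in replicate 1. This fall did not pass with the replicate block either (limma adjusted p = 0.0702). In that fit 0.110% of all genes were called lower and 0.395% higher.

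Over all genes, 0.0598% were lower and past the threshold and 0.289% were higher (0.106% and 0.229% after centring each array on its median). Among the 8 measured genes 2 were lower, 0 were higher and 6 did not pass; 0 were higher at an unadjusted p under 0.05 either. In limma without moderation 0 members passed, as did 0 of all 30102 genes. Among the 18 genes called lower, Pdcd4 had the 4th largest fall and Mknk1 the 14th. Without naive replicate 1 only Pdcd4 passed (limma adjusted p = 0.0262, Mknk1 0.0689), with 0.183% of all genes called lower. Without naive replicate 2 or 3, or without ionomycin replicate 1, 2 or 3, 0 members passed: limma's adjusted p was 0.179, 0.103, 0.0642, 0.181 and 0.167 for Pdcd4 and 0.237, 0.109, 0.106, 0.267 and 0.203 for Mknk1. In these 5 fits 0, 1, 0, 0 and 0 of all 30102 genes were called lower. The differences themselves moved little, from -0.85 to -0.74 for Pdcd4 and from -0.57 to -0.49 for Mknk1. Without both replicate 1 arrays both genes passed (-0.90, limma adjusted p = 0.00775, and -0.47, 0.0330), against 1.43% of all genes called lower and 1.41% higher in that fit.

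**Figure D1:**
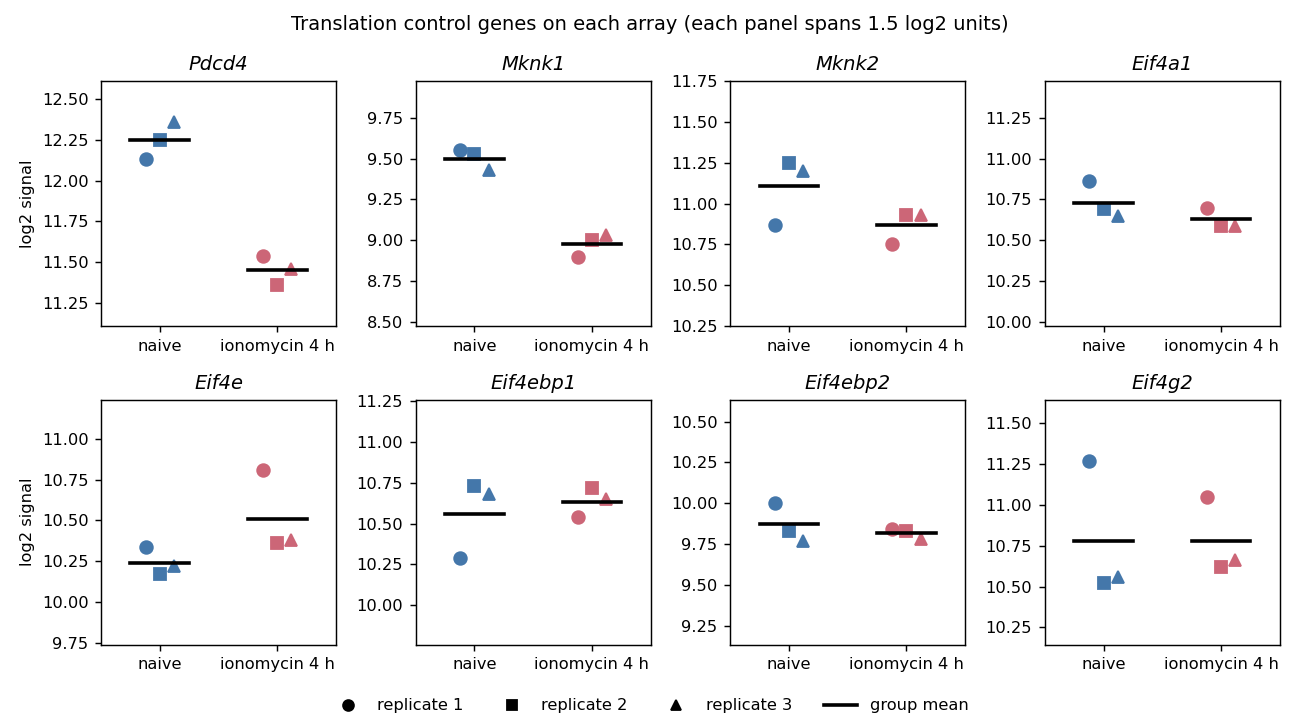
Log2 signal of the 8 measured genes on each array (circle, square and triangle for replicates 1, 2 and 3; bar, group mean; every panel spans the same range of log2 units, at its own level). For Pdcd4 all naive arrays lie at 12.13 or above and all ionomycin arrays at 11.54 or below, while for Eif4g2 the replicate 1 arrays lie above the other arrays in both groups.

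Mknk2 encodes MNK2, the relative of MNK1 that is known for high activity in resting cells. It was at 10.87, 11.25 and 11.20 on naive and 10.75, 10.93 and 10.93 on ionomycin arrays, with naive replicate 1 inside the range of the activated arrays. The log2 difference was -0.23 ± 0.12 SE, with a 95% interval from -0.52 to 0.05, and did not pass (limma adjusted p = 0.362). It was below 0 at every replicate number (-0.11, -0.31 and -0.27). These values do not show that the kinase genes responded unequally. The within-array difference Mknk1 minus Mknk2 changed by -0.30 ± 0.15 SE, from -1.60 ± 0.25 to -1.90 ± 0.04 (SD, n = 3 per group). The exact two-sided permutation test over arrays gave p = 0.10, the smallest that 3 arrays against 3 allow, and 0.150 after adjustment over the 3 pairs compared. By replicate number the change was -0.54, -0.22 and -0.13, so it was larger in replicate 1 than in the others. It was -0.15 without naive replicate 1, -0.17 without both replicate 1 arrays and -0.19 after quantile normalization.

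Eif4a1 encodes the helicase that PDCD4 binds. Its naive arrays read 10.86, 10.69 and 10.65 and its ionomycin arrays 10.70, 10.59 and 10.59, and the groups overlapped. The log2 difference of -0.11 ± 0.08 SE (interval -0.29 to 0.08) did not pass (limma adjusted p = 0.498) and was -0.04 without naive replicate 1. Set against its inhibitor, the within-array difference Pdcd4 minus Eif4a1 went from 1.51 ± 0.22 to 0.83 ± 0.05 (SD, n = 3 per group), a change of -0.69 ± 0.13 SE. It was below 0 at all 3 replicate numbers (-0.43, -0.80 and -0.84), and the exact permutation p was again the floor of 0.10 (0.150 adjusted over the 3 pairs). A shift of a whole array cancels in such a difference; only its change is read, since levels of different rows are not comparable.

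**Figure D2:**
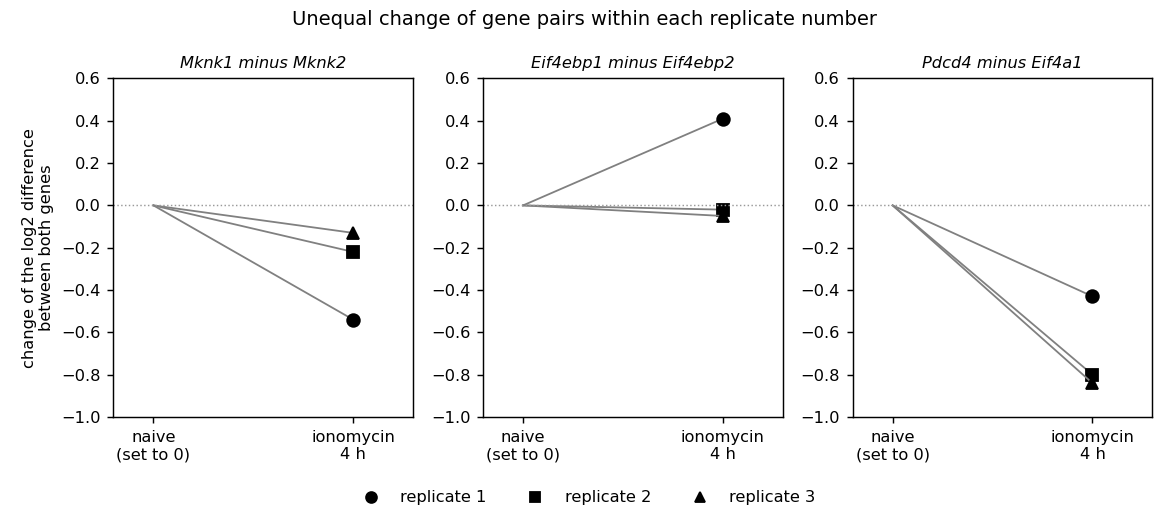
Change of the within-array log2 difference between the genes of each pair, ionomycin minus naive, joined by replicate number (circle, square and triangle for replicates 1, 2 and 3; naive set to 0). Mknk1 minus Mknk2 and Pdcd4 minus Eif4a1 fall below 0 at every number, and Eif4ebp1 minus Eif4ebp2 departs from 0 in replicate 1 (0.41) and stays near it in replicates 2 and 3 (-0.02 and -0.05).

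Eif4e, the cap-binding subunit and substrate of the MNK kinases, had the highest difference of the group. Naive arrays were at 10.34, 10.17 and 10.22 and ionomycin arrays at 10.81, 10.36 and 10.38. The groups did not overlap, but by only a small margin, from 10.34 to 10.36, and ionomycin replicate 1 stood above its group. The log2 difference of 0.27 ± 0.13 SE (interval -0.05 to 0.59) did not pass (adjusted p = 0.357 by limma, and 0.152 with the replicate block). It was 0.46, 0.19 and 0.16 by replicate number, and 0.12 without ionomycin replicate 1. Groups were free of overlap for 26.2% of all genes, 18.9% with ionomycin higher and 7.31% lower; of the 8 genes here 3 did not overlap, Eif4e higher and Pdcd4 and Mknk1 lower.

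The 4E-BP genes did not pass the test. Eif4ebp1, whose product is a translation repressor under mTOR control, was at 10.29, 10.73 and 10.68 on naive and 10.54, 10.72 and 10.65 on ionomycin arrays. Replicate 1 was the lowest array of each group, and the other 4 arrays lay within 10.65 to 10.73. The difference was 0.07 (interval -0.24 to 0.38, limma adjusted p = 0.792) and turned to -0.07 without naive replicate 1. Eif4ebp2, its relative, read 10.00, 9.83 and 9.77 in naive and 9.84, 9.83 and 9.78 in activated cells, a difference of -0.05 (interval -0.23 to 0.14, limma adjusted p = 0.768). Their within-array difference changed by 0.12 ± 0.21 SE (exact permutation p = 1.00). The intervals leave room for a rise of up to 0.38 in Eif4ebp1 and a difference down to -0.23 in Eif4ebp2.

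Eif4g2 encodes a relative of eIF4G that lacks the eIF4E-binding part and serves cap-independent initiation. Its values were 11.27, 10.52 and 10.56 in naive and 11.05, 10.62 and 10.66 in ionomycin arrays. Replicate 1 exceeded the mean of replicates 2 and 3 by 0.73 in naive and 0.41 in activated cells, far more than the groups differed (-0.01, interval -0.56 to 0.55, limma adjusted p = 0.991). With both replicate 1 arrays left out the difference was 0.10, and the gene did not pass (limma adjusted p = 0.370).

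Replicate 1 departed from replicates 2 and 3 on the same side in both groups for 6 of the 8 genes, against 71.2% of all genes. It was higher for Eif4a1, Eif4e, Eif4ebp2 and Eif4g2 and lower for Mknk2 and Eif4ebp1. For Pdcd4 (-0.17 in naive, 0.13 in activated cells) and Mknk1 (0.07 and -0.12) the sides were opposite. Replicate 1 was also the pair of arrays with more basophil protease signal, and the part of that in these values was not tested.

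**Figure D3:**
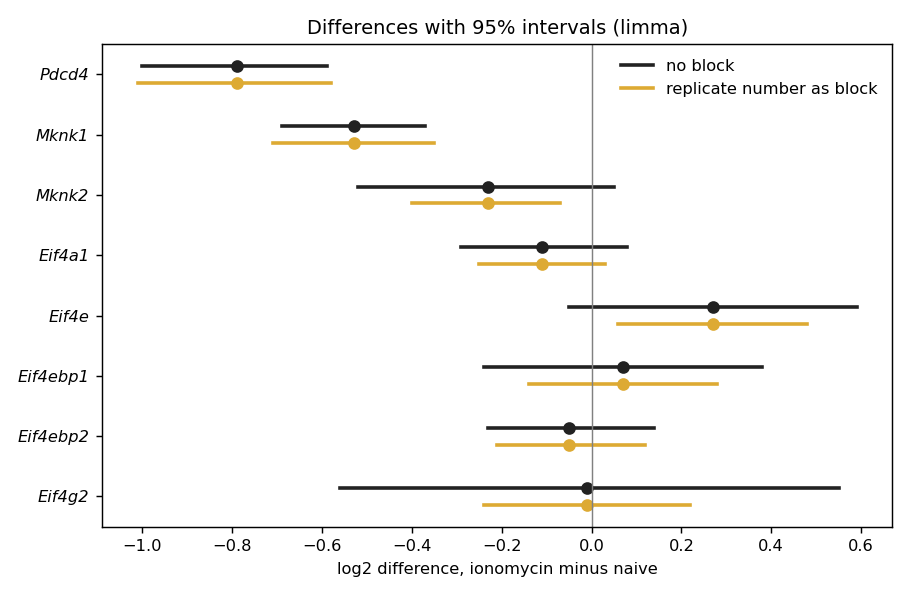
Log2 difference, ionomycin minus naive, for the 8 measured genes with 95% intervals from limma without a block (black) and with the replicate number as a block (yellow). The intervals of Pdcd4 (-1.0 to -0.59) and Mknk1 (-0.69 to -0.37) lie below 0 in both fits; those of Mknk2 and Eif4e hold 0 without the block and not with it, although neither passed after adjustment over all genes.

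The profiles most like that of Pdcd4 over the 6 arrays, after each gene was centred on its own mean, were those of Rgs12, Rab27b, Adgra1, Sec14l1 and Sytl2. Their root mean square distance from it was 0.10 to 0.126 log2 units among 13636 other named genes above background. Their log2 differences were -0.69, -0.59, -0.79, -0.59 and -0.97, and Rgs12 alone of the 5 passed (limma adjusted p = 0.0153, the others 0.0580 to 0.0941). For Mknk1 they were Pot1a, Kifbp, Dop1a, Zfhx3 and Ranbp9, at distances of 0.0356 to 0.0494, with differences of -0.56, -0.54, -0.45, -0.48 and -0.45 and limma adjusted p-values of 0.0572 to 0.0693. The lists shared no gene. These genes were picked by closeness to profiles that hold the falls of Pdcd4 and Mknk1. Their negative differences and small p-values follow from that choice and are no independent evidence. Over all genes, limma called 0.0598% lower.

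Around these genes, 9 lists of translation and signalling genes were measured, with 104 genes besides the members. By limma 0 of the 104 were higher and 0 lower, 7 and 7 at an unadjusted p under 0.05 (all genes 10.2% and 5.44%). With the replicate block 0 and 0 passed, against 0.110% of all genes lower and 0.395% higher; without moderation no gene of the 30102 passed. The groups did not overlap for 10 genes with ionomycin higher and 10 lower, 19.2% of the 104. Over all genes it was 26.2%, with 18.9% higher and 7.31% lower. Medians of the lists ran from -0.08 to 0.27, against 0.05 for all genes and -0.08 for the members themselves. The highest, 0.27, came from the list of 3 measured MNK substrate genes and is the value of Eif4e, itself a member. The next highest was 0.13, for the MAP kinase genes.

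Of the 16 measured genes of the cap complex and scanning, 0 passed and 12 differed downwards, with a median of -0.07. The brightest were Pabpc1, the poly(A)-binding protein, at 0.00, and Eif4h, a partner of eIF4A, at 0.01 (limma adjusted p = 0.994 and 0.963), both slightly below 0 after either other scaling. Among 10 genes around eIF1, eIF5 and eIF6 the median was 0.01. Eif5a, a factor that helps ribosomes through difficult stretches, was at 0.11 and Eif5b, which joins the ribosomal subunits, at -0.23 (limma adjusted p = 0.450 and 0.283). The 13 genes of eIF2, its exchange factor and its kinases had a median of -0.07, with the eIF2 gamma gene Eif2s3x at -0.02 and the exchange factor gene Eif2b2 at -0.10 (0.875 and 0.426). The 12 genes of eIF3, the large scaffold of the small subunit, had a median of 0.03, with Eif3h at 0.02 and Eif3a at -0.06 (0.885 and 0.795). With the block of 2 levels, replicate 1 against the others, Eif4e3 of the cap list passed at -0.26 (limma adjusted p = 0.0445, and 0.415 without a block). So did Eif2s2 of the eIF2 list at 0.29 (0.0460, and 0.397 without a block). Both were named after their values were seen, and their groups overlapped. That fit called 2.47% of all genes lower and 2.25% higher.

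Of 13 elongation and termination genes 0 passed. The elongation factors Eef2 and Eef1a1 were at 0.01 and -0.02 (limma adjusted p = 0.960 and 0.920). Eef2k, the kinase that inhibits eEF2 when calcium rises, had the lowest value of this list, -0.56 ± 0.13 SE (limma adjusted p = 0.166; named after its value was seen). It was below 0 at all 3 numbers (-0.88, -0.56 and -0.25).

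Upstream, 19 genes of the mTOR pathway had a median of -0.08 and 0 passed. Ddit4, an mTOR inhibitor induced by stress, was at -0.08 with 0.33, -0.31 and -0.26 by replicate number, and Rheb, the GTPase that activates mTOR, at 0.23 with 0.37, 0.15 and 0.18 (limma adjusted p = 0.883 and 0.439). Rheb was at 0.08 without ionomycin replicate 1. Of 13 MAP kinase genes, the family that activates MNK1, 0 passed and the median was 0.13. Mapkapk2, which p38 also activates, was at 10.43 in naive and 11.15 in activated cells, a difference of 0.72 ± 0.21 SE (limma adjusted p = 0.231). It was 1.20 in replicate 1 and 0.49 and 0.48 in the others. Mapkapk2 passed without both replicate 1 arrays (0.49, limma adjusted p = 0.0296) and with array weights (0.55, 0.0422). These fits called 1.41% and 7.44% of all genes higher. With the block of 2 levels, replicate 1 against the others, it did not pass (limma adjusted p = 0.0521). Map2k3, a kinase of p38, was at 0.41 (limma adjusted p = 0.343) and 1.01, 0.18 and 0.04 by replicate number. Map2k6, another kinase of p38 and named after its value was seen, went the other way, at -0.68 without overlap. Its limma adjusted p was 0.203, and 0.0467 with the block of 2 levels, replicate 1 against the others. By replicate number it was at -0.66, -0.94 and -0.44. Of the 13 genes, 8 differed upwards and 5 downwards.

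Of 8 genes tied to the turnover or control of PDCD4, 0 passed and the median was -0.07. Akt1 was at -0.18 and the arginine methyltransferase gene Prmt5 at -0.13 (limma adjusted p = 0.370 and 0.569). The ubiquitin ligase that recognises phosphorylated PDCD4 is built on the cullin gene Cul1 with the F-box genes Btrc and Fbxw11, all 3 named after their values were seen. Cul1 was at -0.45, without overlap (limma adjusted p = 0.228, and 0.0396 with the block of 2 levels, replicate 1 against the others). Btrc was at 0.12 and Fbxw11 at 0.17 (limma adjusted p = 0.668 and 0.567), the latter 0.49, 0.02 and 0.01 by replicate number. Mir21a, the microRNA gene known to target Pdcd4, shared its row with Vmp1 and has no value here. Among 3 measured genes of MNK substrates, Eif4e included, Spry2, a feedback inhibitor of receptor kinase signalling, was at 7.74 in naive and 8.57 in activated cells. Its difference of 0.82 ± 0.13 SE missed the threshold (adjusted p = 0.0795 by limma, 0.0934 with the replicate block). It passed with the block of 2 levels (limma adjusted p = 0.0291), without both replicate 1 arrays (0.0273) and with array weights (0.00639). Pla2g4a, the cytosolic phospholipase that frees arachidonic acid, was at -0.06 (limma adjusted p = 0.781). The list of 8 small nucleolar RNA genes expected within introns of eIF4 genes had 0 members with a row of their own.

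**Figure D4:**
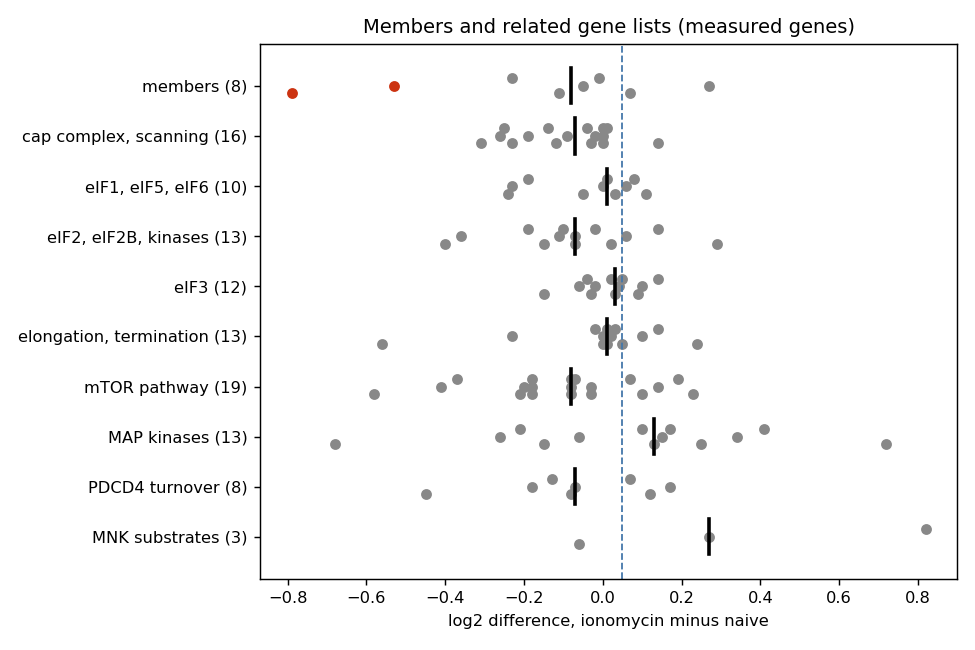
Log2 difference, ionomycin minus naive, of each measured gene by list, with the number measured in brackets (red, limma adjusted p under 0.05; grey, not past it; black bar, list median; dashed line, median of all genes, 0.05). The points past the threshold are Pdcd4 and Mknk1, and the 9 related lists scatter on both sides of 0.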

How the data were processed

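The authors deposited processed log2 signals of 6 arrays, 65770 rows with 0 missing values, made with the R package oligo per the submitters' processing notes; its version, and how rows were summarized and normalized or on which build, is not given in the sources used here. The log2 scale was read from the values (3.01 to 14.63); whether arrays were centred stays unknown. The platform annotation gave 30439 rows 1 symbol, 2146 several and 33185 none; 827 symbols were updated through Entrez IDs (RefSeq, GRCm38.p6). The brightest row stood for a gene. The groups were compared with limma 3.58.1 (R 4.3.3, version 1.17.8 of data.table), ionomycin minus naive, over all 6 arrays and 30102 genes. The fit was tested on simulated data with independent noise on each array. Those data held no departure shared by the replicate 1 arrays, so that test does not cover it. Samples were grouped by their titles. Pair contrasts used exact permutation. Named were all members, from each list genes past the threshold or else the 2 brightest, and the 5 profiles nearest to Pdcd4 and Mknk1. Members and lists were chosen with earlier results of these data known. Same-numbered arrays deviated together from their group means across genes (correlations 0.711, 0.476 and 0.469). Deviations within a group sum to 0, so a shared replicate 1 effect alone makes the values for numbers 2 and 3 positive. They cannot show that replicates 2 and 3 were paired by number. The number, shared through the titles, was also used as a block. Alternatives were this block, a block of 2 levels (replicate 1 against the others), leaving out arrays, 2 other scalings, a filter at background, other variance settings, weights per array, averaging the rows of a gene and all rows as the tested set. The contrasts planned with Eif4a2 or Eif4g1 were not run, since neither gene has a row of its own under the rule, so p-values were adjusted over the 3 pairs that could be computed.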

Additional observations from a re-analysis of the deposited data

How the results depend on the processing

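The directions of Pdcd4, Mknk1, Mknk2, Eif4a1 and Eif4e held in all 17 alternatives, and how many members passed did not. The count of members lower, 2 as reported, was 0 with the replicate block and without moderation (0.110% and 0 of all genes called lower). It was 1 after quantile normalization (0.0897% of all genes called lower), after centring (0.106%), with trend and robust settings (0.0299%) and with all rows tested (0.0299%). With array weights it was 3 (Mknk2 added), in a fit that called 5.49% of all genes lower. Without single arrays it was 0 to 1, where 0 to 1 of all genes were lower in 5 of the 6 fits and 55 without naive replicate 1. It was 2 in the remaining fits, and members higher were 0 throughout. The remaining fits called lower 2.47% (block of 2 levels), 1.43% (both replicate 1 arrays left out), 0.0847% (genes above background) and 0.0532% (rows averaged) of the genes tested. Mknk1 was the gene lost where 1 remained. Pathway genes lower and higher were 3 and 2 with the block of 2 levels (2.47% and 2.25% of all genes in that fit), 1 and 3 without both replicate 1 arrays (1.43% and 1.41%), 9 and 6 with array weights (5.49% and 7.44%), and 0 elsewhere. The shared numbering was used through the replicate block, where the pair contrasts kept their values (-0.30, 0.12 and -0.69; exact p = 0.250, 1.00 and 0.250, the first and last at the smallest that 3 pairs allow). Eif4ebp1 minus Eif4ebp2 ran from -0.09 to 0.22 without single arrays, the lowest without naive replicate 1, and turned to -0.03 without both replicate 1 arrays.

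Differences near 0 changed sign. With both replicate 1 arrays left out Eif4ebp1 was at -0.02, Eif4ebp2 0.01, Eif4g2 0.10, Pabpc1 -0.01, Eif4h -0.08, Eif3h -0.06, Eef2 -0.05, Prmt5 0.04 and Pla2g4a 0.01. With array weights Eif4ebp1 was at -0.01, Eif4g2 0.10, Pabpc1 -0.01, Eif4h -0.05, Eif3h -0.06, Eef2 -0.07 and Eef1a1 0.00. After centring Pabpc1 was at -0.07, Eif4h -0.05, Eif3h -0.04 and Eef2 -0.06, and after quantile normalization Pabpc1 -0.01, Eif4h -0.03 and Eif3h -0.00. Without single arrays the ranges were -0.07 to 0.15 (Eif4ebp1), -0.09 to 0.02 (Eif4ebp2), -0.14 to 0.24 (Eif4g2), -0.02 to 0.01 (Pabpc1), -0.11 to 0.08 (Eif4h), -0.04 to 0.02 (Eif2s3x), -0.05 to 0.07 (Eif3h), -0.12 to 0.05 (Eif3a), -0.05 to 0.06 (Eef2), -0.06 to 0.03 (Eef1a1), -0.39 to 0.07 (Ddit4) and -0.14 to 0.05 (Pla2g4a). The median difference of all genes, 0.05 in the deposited values, was 0.01 under quantile normalization and -0.01 under centring. Leaving out arrays leaves fewer samples; the cause of the other changes was not tested. The number of arrays, 3 a group, sets the width of the intervals given.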
